A study of Homo sapiens with 6 samples.

Results

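The enzymes that make, interconvert, salvage and break down guanine nucleotides were examined in a BRAF-mutant human melanoma line, WM164. The group holds 10 genes, namely the GMP reductase genes GMPR and GMPR2, the IMP dehydrogenase genes IMPDH1 and IMPDH2, the GMP synthetase gene GMPS, the guanylate kinase gene GUK1, the salvage genes HPRT1 and APRT, and the breakdown genes PNP and GDA. The set was chosen by the colony-minus-parent difference of GMPR on these same arrays, where it was among the deepest. The other members were listed for their place around GMPR in the pathway, with earlier results of these data known. A gene was represented by the probe set that the platform annotation gives to that symbol alone, taking the one with the highest mean over the arrays where there were several. This found 9 of the 10 genes among 18417 genes measured, each with 1 probe set. GMPR2 was not analysed here.

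Parent cells, which the sample labels call untreated and control and which the series title says were exposed to DMSO, the drug's solvent, were compared with colonies after 60 days in 500 nM PLX4032. PLX4032, also known as vemurafenib, is a small-molecule inhibitor of mutant BRAF. The labels name the treated samples IDTC colony and describe them as resistant. Both groups are the same cell line grown in RPMI medium with FCS, so the comparison rests on 1 line. Each group had 3 samples on 1 array each, and separate cultures are not stated for the replicates, so p-values reflect the scatter among these particular arrays alone, part or all of which may be technical. Values are log2 expression values, on which a difference of 1 is a doubling, and the number of arrays limits their precision. Levels of different probe sets are not comparable with each other, so levels are compared within a gene. Ratios, sums and profile distances that combine probe sets are read for how they differ between arrays.

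Guanine nucleotides are built from inosine monophosphate (IMP), the shared precursor of both purines. IMP dehydrogenase oxidises IMP to xanthosine monophosphate, GMP synthetase turns that into guanosine monophosphate (GMP), and GMP reductase runs the opposite way, converting GMP back to IMP. Guanylate kinase raises GMP to GDP, salvage enzymes rebuild nucleotides from free bases, and purine nucleoside phosphorylase and guanine deaminase take nucleosides and guanine apart. In melanoma, GMPR has been described as a target of the lineage transcription factor MITF and as an enzyme that restrains invasion by limiting GTP.

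The arrays were alike in overall level. Array medians lay between 6.25 and 6.34, correlations over all probe sets were 0.995 to 0.997 within a group and 0.978 to 0.980 between groups. Of the 18417 genes, 4212 had lower and 3849 higher values in treated colonies by limma (adjusted p under 0.05). Of 6 melanocyte lineage markers measured, 5 lay above the lowest array median and TYRP1 was below it in both groups. They moved in both directions. MLANA, a melanosomal protein gene, fell by 1.45 ± 0.04 to 36.7% of the parent signal and TYRP1 fell by 0.23 ± 0.07, SOX10 rose by 0.42 ± 0.06 and PMEL by 0.33 ± 0.04, and MITF (0.00) and TYR (-0.12) were not called. The summed linear signal of the 6, which hides these opposite differences, ran from 12930 to 13120 in parent cells and from 13540 to 13950 in colonies. In both groups all 5 endothelial and all 4 erythroid markers measured, and 3 of 5 keratinocyte and 2 of 6 fibroblast markers, lay below the lowest array median, and 2 fibroblast markers fell, with log2 differences of -0.34 for LUM and -0.57 for PDGFRA.

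GMPR was much lower in the colonies than in parent cells. Its log2 value was 10.05 on each of the 3 parent arrays, and 5.47, 5.70 and 5.34 on the colony arrays. The colony arrays all lay far below the parent arrays, with 4.35 log2 units between the nearest values of the groups. The mean difference was -4.54, which leaves 4.29% of the parent signal on the linear scale. This difference is what singled the gene out, so it is a description and no test is attached to it. The deposited parent values of GMPR were identical to the last digit, as they were for 215 genes in all, and the SD of 0 is a property of those values. The colony mean of 5.50 was under the lowest of the array medians, its distance from background was not tested, and the size of the difference is that of the deposited values. In these bulk samples, fewer cells that express a gene and less RNA per cell cannot be told apart.

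**Figure D1:**
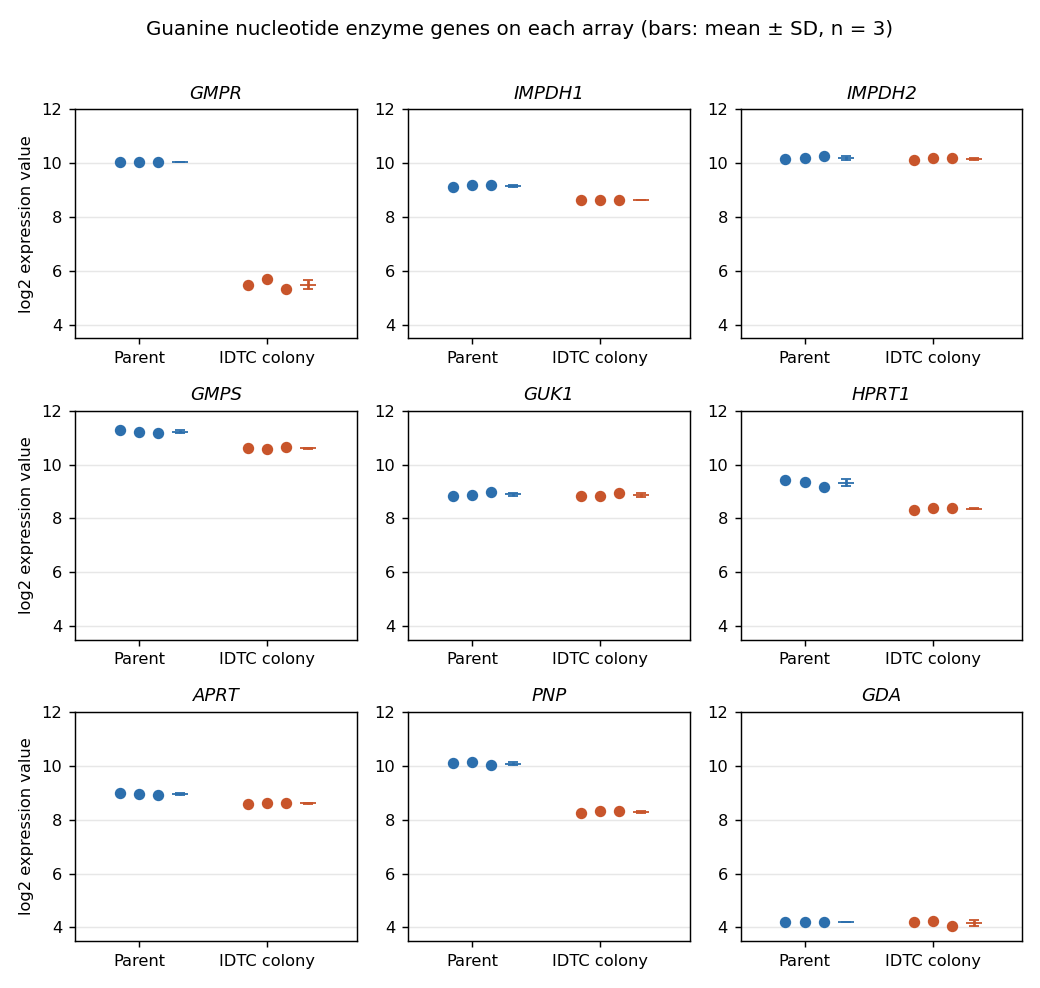
Log2 expression value (y axis) of the 9 measured genes on each parent array (blue) and each IDTC colony array (orange), 1 point per array, with the group mean ± SD (n = 3) to the right of the points. GMPR drops from 10.05 to between 5.34 and 5.70, PNP and HPRT1 shift by less without overlap, and IMPDH2, GUK1 and GDA overlap between the groups; levels of different panels are not comparable.

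The bases before the start site of GMPR are shown with those of PNP and HPRT1, the tested members with the largest differences, because these 3 genes differed most between the groups. The sequences are RefSeq's in the build GRCh38.p14, 250 bases before each start on the plus strand, at chr6:16238337-16238586 for GMPR, chr14:20469156-20469405 for PNP and chrX:134459915-134460164 for HPRT1. Capitals mark matches on either strand to a GC box (GGGCGG) or a CCAAT box (CCAAT).
GMPR: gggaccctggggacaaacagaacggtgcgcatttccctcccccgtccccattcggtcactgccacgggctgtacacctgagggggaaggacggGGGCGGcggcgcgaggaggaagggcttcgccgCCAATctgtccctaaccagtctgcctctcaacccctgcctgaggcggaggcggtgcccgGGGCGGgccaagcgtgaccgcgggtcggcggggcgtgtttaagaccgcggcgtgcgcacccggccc
PNP: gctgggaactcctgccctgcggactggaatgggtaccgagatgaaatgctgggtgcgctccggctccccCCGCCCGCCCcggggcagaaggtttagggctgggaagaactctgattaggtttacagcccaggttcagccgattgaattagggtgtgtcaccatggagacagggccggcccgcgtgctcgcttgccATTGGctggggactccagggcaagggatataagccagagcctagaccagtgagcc
HPRT1: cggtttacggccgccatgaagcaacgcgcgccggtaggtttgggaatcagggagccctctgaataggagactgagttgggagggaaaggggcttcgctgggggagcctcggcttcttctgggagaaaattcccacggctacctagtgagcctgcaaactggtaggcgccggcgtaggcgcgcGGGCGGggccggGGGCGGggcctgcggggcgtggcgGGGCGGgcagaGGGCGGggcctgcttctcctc
GMPR had 2 GC boxes and 1 CCAAT box, PNP had 2 overlapping GC boxes and 1 CCAAT box, and HPRT1 had 4 GC boxes and no CCAAT box. Among all 35116 start-site windows of that length, 42.6% held a GC box and 32% a CCAAT box. The E-box letters CACGTG (in 6.34% of windows) and CATGTG (9.42%) and the TATA box letters TATAAA (10.7%) were not in any of the 3 windows on either strand. The bases C and G made up 71.2% of the GMPR window, 62% of the PNP window and 68.8% of the HPRT1 window, against a median of 58% over all windows. Of the 10 genes, 9 had an entry, the exception being IMPDH2. GDA, which did not pass the test, had 1 GC box and 1 CCAAT box. GUK1, which did not pass either, had 1, 3 and 0 GC boxes at its separate start sites and no CCAAT box. Its start site with 0 GC boxes had 1 match to CATGTG. IMPDH1, GMPS and APRT, which fell, had 4, 4 and 3 GC boxes and no CCAAT box. A link between these letters and the differences was not tested.

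The genes beside GMPR on chromosome 6 differed less than it did. Among the 10 measured genes on each side in the RefSeq gene order, 8 were called higher, 4 lower and 8 neither. Their median difference was 0.01. The shares over all genes were 20.9% higher and 22.9% lower. Among genes above the median level, where 15 of the 20 neighbours lie, they were 31.2% and 36.8%. The next measured gene on one side, MYLIP, which encodes a ubiquitin ligase, rose by 1.02 ± 0.06 (log2 difference ± SE), and the next on the other, the ataxin gene ATXN1, fell by 0.40 ± 0.06 (limma adjusted p = 6.8e-06 and adjusted p = 0.00074). The lowest of the 20 neighbours was RNF182, with a log2 difference of -1.39.

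**Figure D2:**
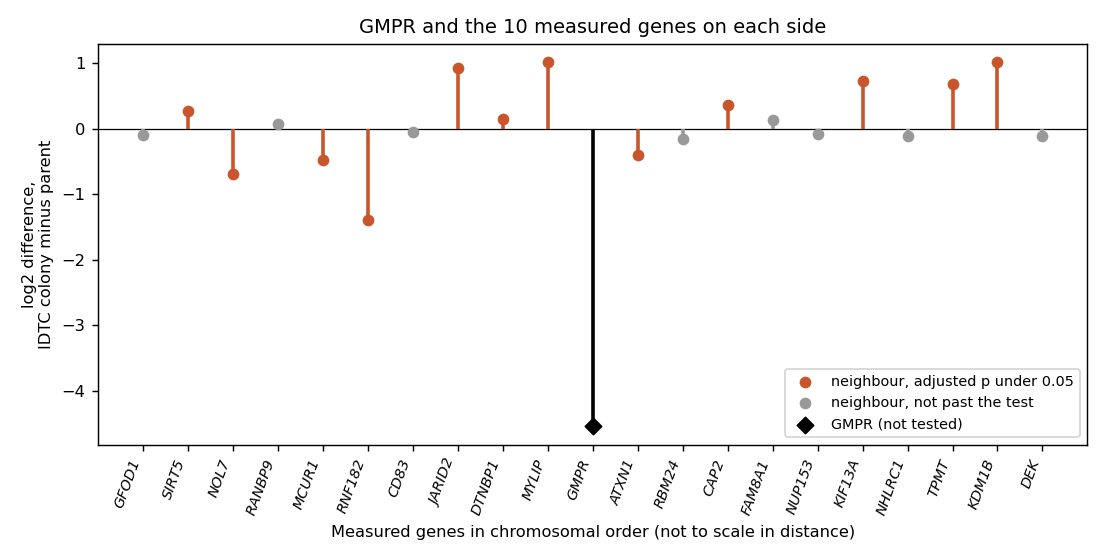
Log2 difference between IDTC colonies and parent cells (y axis) for GMPR (black diamond) and the 10 measured genes on each side of it, in chromosomal order (x axis, not to scale); orange points passed the test and grey points did not. The neighbours range from -1.39 to 1.02 around a median of 0.01, and GMPR stands at -4.54.

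Genes with a profile like that of GMPR were sought over the 6 arrays. With each gene's 6 values centred on their own mean, the 5 genes with the smallest root mean square distance to GMPR were CD96 (0.126 log2 units), IGFBP5 (0.187), PRKAA2 (0.233), PNMA5 (0.285) and TMEM163 (0.324). Their log2 differences ran from -4.77 for IGFBP5 to -3.90 for TMEM163. The arrays form only 2 groups, so this likeness mostly states a drop of similar size. Among the other members PNP was nearest, at 1.39.

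The RNA levels of MITF and MYC, transcription factors known for driving genes of this pathway, did not pass the test. Protein and activity of these factors were not measured on the arrays, and their part in the differences was not tested. MITF had log2 values of 11.14, 11.14 and 11.13 in parent cells and 11.14, 11.20 and 11.07 in colonies, a difference of 0.00 with a 95% confidence interval from -0.11 to 0.11 (limma adjusted p = 0.99). MYC, which promotes transcription of nucleotide synthesis genes in many cell types, had 10.74, 10.69 and 10.75 in parent cells and 10.74, 10.70 and 10.79 in colonies. Its difference was 0.02, with an interval from -0.09 to 0.12 (limma adjusted p = 0.83).

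Of the 8 members that could be tested, 5 fell in the colonies, 0 rose and 3 missed the threshold. PNP, HPRT1, GMPS, IMPDH1 and APRT fell, and IMPDH2, GUK1 and GDA did not pass. Over all genes 22.9% were called lower and 20.9% higher (limma, adjusted p under 0.05). Among genes above the median level, where 7 of the 8 members lie, these shares were 36.8% and 31.2%. The median log2 difference of the 8 members was -0.43, against -0.03 for genes above the median level. Of the 8, the same 5 members had all colony arrays below all parent arrays, which uses the same arrays as the calls and is no separate evidence. The pattern was found in 26.4% of all genes. Its share among genes above the median level was not computed.

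**Figure D3:**
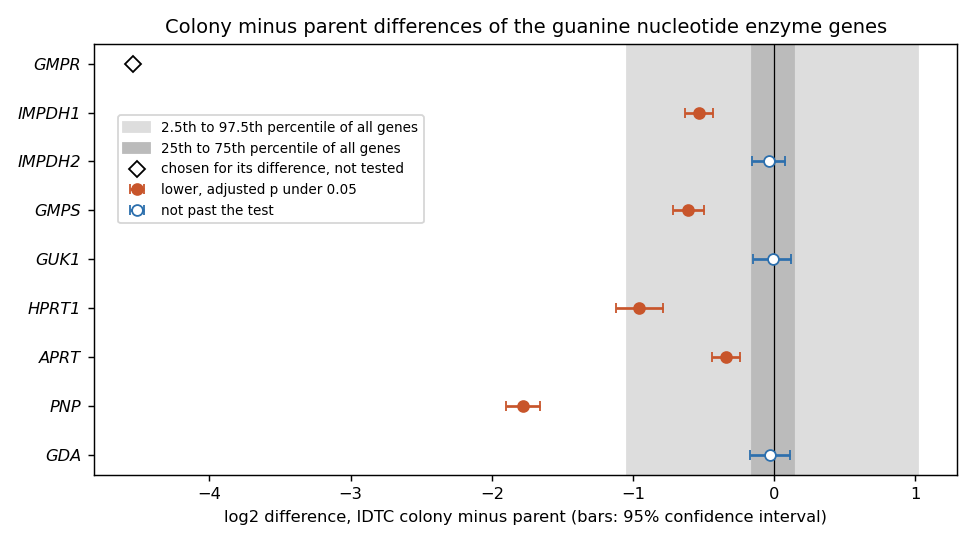
Log2 difference between IDTC colonies and parent cells (x axis) for each measured member, with its 95% confidence interval except for GMPR, which was not tested; filled points passed the test, and the grey bands hold the central part of all genes. PNP at -1.78 lies outside the outer band (-1.04 to 1.02), HPRT1 at -0.96 lies near its edge, and IMPDH2, GUK1 and GDA lie in the inner band (-0.16 to 0.14).

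The enzymes that lead from IMP to GMP were divided. IMPDH1, the IMP dehydrogenase best known from the retina and from resting cells, had log2 values of 9.13, 9.18 and 9.19 in parent cells and 8.64, 8.64 and 8.63 in colonies. The groups did not overlap, and the gene fell by 0.53 ± 0.04 (limma adjusted p = 3.5e-05). None of the 20 genes around IMPDH1 rose and 8 of them fell, where 20.9% of all genes were called higher and 22.9% lower. Their median was -0.13 over all 20 and -0.35 over those above the median level. IMPDH2, the isoform usually linked with proliferating cells, had 10.14, 10.20 and 10.26 in parent cells and 10.11, 10.19 and 10.19 in colonies. Its groups overlapped, and the difference of -0.04 had a 95% confidence interval from -0.16 to 0.08 (limma adjusted p = 0.62).

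The log2 ratio of IMPDH2 to IMPDH1 within an array was 1.01, 1.02 and 1.08 in parent cells and 1.47, 1.55 and 1.56 in colonies. Every colony array had a higher ratio than every parent array, by 0.49 on average, and the 2-sided exact permutation test gave p = 0.1, the smallest that 3 against 3 arrays allow. GMPS, which completes GMP, had log2 values of 11.28, 11.19 and 11.17 in parent cells and 10.60, 10.58 and 10.64 in colonies. It fell by 0.61 ± 0.05 without overlap (limma adjusted p = 3.5e-05). Of its 20 neighbours on chromosome 3, 7 fell and 5 rose, where 22.9% of all genes were called lower and 20.9% higher. The median of these neighbours was -0.07, or -0.26 over those above the median level.

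GUK1, the kinase through which GMP passes on its way to GTP, kept nearly the same values. They were 8.83, 8.87 and 8.97 in parent cells and 8.84, 8.84 and 8.96 in colonies. The groups overlapped, and the difference of -0.01 had a 95% confidence interval from -0.15 to 0.12 (limma adjusted p = 0.90).

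Both salvage phosphoribosyltransferase genes fell. HPRT1, which rebuilds GMP from guanine and IMP from hypoxanthine, had log2 values of 9.43, 9.36 and 9.17 in parent cells and 8.33, 8.38 and 8.38 in colonies. The fall was 0.96 ± 0.07, to 51.5% of the parent signal (limma adjusted p = 2.4e-05). The groups did not overlap, and the SD of the gene was 0.132 over the parent and 0.027 over the colony arrays. Its neighbours on the X chromosome had a median of 0.04, with 2 of 20 lower and 3 higher. The shares over all genes were 22.9% and 20.9%. APRT, which acts on adenine, went from 8.99, 8.94 and 8.91 to 8.59, 8.61 and 8.63. Its fall of 0.34 ± 0.04 was the smallest that passed among the members (limma adjusted p = 0.00046).

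Of the breakdown genes, PNP fell strongly and GDA lay low throughout. PNP, which splits inosine and guanosine into base and sugar phosphate, had log2 values of 10.09, 10.14 and 10.02 in parent cells and 8.26, 8.32 and 8.33 in colonies. All colony arrays lay below all parent arrays by at least 1.69, and the fall of 1.78 ± 0.05 left 29.1% of the parent signal (limma adjusted p = 3.3e-07). Only 1.41% of all genes had a larger absolute difference. Of 5 genes listed as leukocyte markers, measured here in a single melanoma line, 2 fell, with log2 differences of -2.35 for LYZ and -1.44 for FCER1G. The other markers, PTPRC, CD3E and CD14, lay below the lowest array median in both groups. Their differences were 0.04 for PTPRC, 0.01 for CD3E and 0.00 for CD14. A link between these genes and the fall of PNP was not tested. The summed linear signal of the 5, of which only LYZ and FCER1G were called, ran from 401.5 to 483.6 in parent cells. In colonies it ran from 176.6 to 184.3. The genes around PNP on chromosome 14 had a median of 0.08, with 2 of 20 lower and 4 higher. The shares over all genes were 22.9% and 20.9%.

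GDA, which deaminates guanine to xanthine, was listed at 4.19 on all 3 parent arrays and at 4.19, 4.25 and 4.05 on the colony arrays. The groups overlapped, both lay below the lowest array median, and the difference of -0.03 had a 95% confidence interval from -0.17 to 0.11 (limma adjusted p = 0.75). Whether these values stand above background was not tested.

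Beyond the members, 8 wider lists of nucleotide-related genes held 66 measured genes, of which 22 were called lower, 16 higher and 28 neither. Not all of these genes act on guanine nucleotides. The shares over all genes are 22.9% lower and 20.9% higher, and 36.8% and 31.2% among genes above the median level, and no test set the lists against them. The median log2 difference of the 66 genes was -0.02. The largest fall was that of the nucleotidase gene NT5E and the largest rise that of the adenylate kinase gene AK5. SPR, ADA and NT5C2 were added after their values were seen. The other genes named from these lists were picked for the largest called differences on these same arrays.

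Of 10 genes of de novo IMP synthesis, 6 were lower, 2 higher and 2 uncalled, with a median of -0.19, beside the 36.8% lower and 31.2% higher among all genes above the median level. The lower count was 4 after quantile normalization and without parent replicate 1, parent replicate 2, colony replicate 1 or colony replicate 2. PPAT, which catalyses the committed step, had log2 values of 9.43, 9.29 and 9.25 in parent cells and 8.52, 8.78 and 8.89 in colonies, and fell by 0.59 ± 0.10 (limma adjusted p = 0.0018). PAICS, a bifunctional enzyme of the middle of the route, fell by 0.65 ± 0.09, whereas PRPSAP1, a protein associated with the synthase of the ribose phosphate donor, rose by 0.67 ± 0.05.

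Tetrahydrobiopterin, the cofactor of phenylalanine and tyrosine hydroxylases, is made from GTP. Of 6 genes that make it, regulate that route or regenerate the cofactor, 4 fell, 0 rose and 2 were uncalled, with a median of -0.58. Called lower were 22.9% of all genes and 36.8% of those above the median level. GCH1, whose product opens this route by acting on GTP, went from 6.77, 6.65 and 6.54 to 6.02, 6.02 and 6.02, a fall of 0.63 ± 0.06 to a mean below the lowest array median (limma adjusted p = 0.00011). PTS, which acts next, went from 8.49, 8.35 and 8.34 to 7.22, 7.30 and 7.32 and fell by 1.11 ± 0.06 (limma adjusted p = 4.5e-06). SPR, which completes the cofactor, fell by 0.54 ± 0.06 and QDPR, which regenerates it, by 0.63 ± 0.06. On these 4 called genes every colony array lay below every parent array, while on the 2 uncalled genes the groups overlapped. That pattern was found in 26.4% of all genes. It uses the same arrays as the calls and is no separate evidence.

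Of 12 measured adenine nucleotide genes, 5 were higher, 2 lower and 5 uncalled (median 0.08), beside 20.9% higher and 22.9% lower over all genes. Among genes above the median level these shares were 31.2% and 36.8%. With only such genes kept in the fit, 3 of the list were higher and 2 lower. The adenylate kinase gene AK5 rose by 2.73 ± 0.15 and AK9 by 1.34 ± 0.11, both from a parent mean of 4.67, below the lowest array median. The colony mean was 7.39 for AK5 but 6.01 for AK9, which thus lay below the lowest array median in both groups. AK4, a mitochondrial kinase of the same family, fell by 1.49 ± 0.05. With the mean of each gene's probe sets the difference was 0.49 for AK9 and -0.95 for AK4. ADA, which deaminates adenosine to inosine, a substrate of PNP, rose by 1.29 ± 0.06 from 8.68, 8.66 and 8.68 to 9.86, 9.95 and 10.07 (limma adjusted p = 3.1e-06). The 5 measured nucleoside diphosphate kinases, which charge GDP to GTP, included 3 called higher, 1 lower and 1 neither, with NME4 at 0.74 ± 0.05, NME3 at 0.39 ± 0.06 and NME6 at -0.38 ± 0.08.

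Nucleotidases and oxidative breakdown genes split evenly, with 3 of 12 higher, 3 lower and 6 uncalled (median -0.05). Beside this list and those that follow stand the shares over all genes, 20.9% higher and 22.9% lower. Among genes above the median level the shares were 31.2% and 36.8%. NT5E, the surface enzyme that releases adenosine from AMP, went from 9.08, 8.93 and 8.95 to 6.27, 6.20 and 6.32, a fall of 2.72 ± 0.06 (limma adjusted p = 1.3e-07). NT5C3A, a cytosolic nucleotidase, fell by 0.77 ± 0.12, and the mitochondrial NT5M rose by 0.83 ± 0.09. NT5C2, a cytosolic enzyme that prefers IMP and GMP, rose by 0.54 ± 0.05 from 8.55, 8.43 and 8.41 to 8.97, 9.04 and 9.02. Among 7 enzymes of deoxynucleotide supply, 1 rose, 2 fell and 4 were not called. SAMHD1, a hydrolase of deoxynucleoside triphosphates that GTP activates, rose by 1.25 ± 0.09, and the ribonucleotide reductase genes RRM2 and RRM1 fell by 1.09 ± 0.05 and 0.29 ± 0.07. Of 7 nucleoside transporters 2 rose, 3 fell and 2 were not called, with SLC29A4 at 1.24 ± 0.06, SLC29A2 at -0.69 ± 0.05 and the main equilibrative transporter SLC29A1 at -0.48 ± 0.04.

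Among the guanylate cyclases, which use GTP to make cyclic GMP, 1 of 7 measured genes fell, GUCY1A2 by 0.33 ± 0.07. The other 6 did not pass the test, 5 of them below the lowest array median in both groups. Of all genes, 22.9% were called lower and 20.9% higher.

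**Figure D4:**
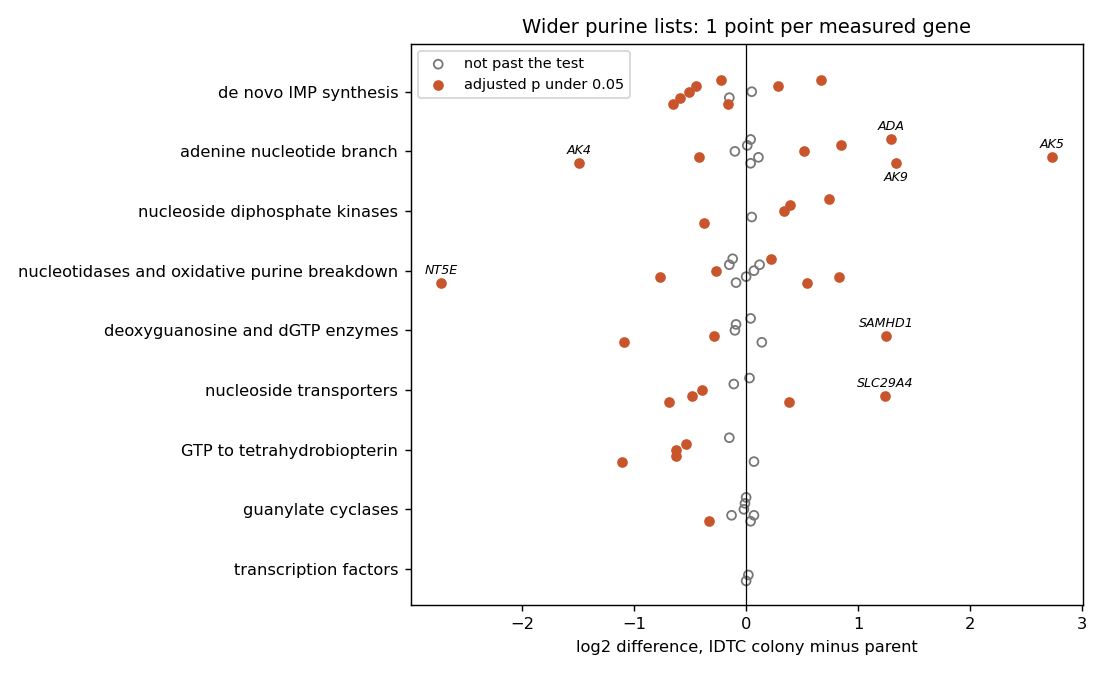
Log2 difference between IDTC colonies and parent cells (x axis) for each measured gene of the wider lists and for MITF and MYC (y axis, 1 row per list, points spread vertically for sight); filled points passed the test. The points of the tetrahydrobiopterin list that passed all lie below 0. Those of the adenine branch run from -1.49 to 2.73, and NT5E lies at -2.72.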

How the data were processed

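RNA of 3 parent and 3 IDTC colony samples was read on 1-colour Affymetrix whole-transcript arrays, with groups and replicate numbers taken from the sample titles. The deposited values are log2 expression values per probe set, as their range shows. Affymetrix Expression Console is named in the submitters' processing notes, with no version or settings. Batches were not given either, so batch and group cannot be told apart. Of 33297 probe sets, 19460 had 1 gene symbol, 1754 several and 12083 none in the platform annotation. The first gave 18417 genes with no filter on dim ones. The authors' log2 values were used as deposited.

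Groups were compared with limma's lmFit and eBayes (2-sided, no covariate). Calls took p-values adjusted by Benjamini-Hochberg over the 18417 genes, at 0.05. The fit was tested on simulated data. Gene order came from the RefSeq table (GRCh38.p14), in which 19429 probe sets with 1 symbol matched by Entrez ID. Members and lists were chosen with earlier results of these data known. Named were all members, MITF, MYC, the 5 nearest profiles and the next gene on each side of GMPR. From each wider list up to 3 called genes were named, those with the largest absolute differences on these arrays. Counts and medians describe the lists. One planned list is not reported here. Marker lists covered melanocyte, fibroblast, keratinocyte, endothelial, leukocyte, erythroid and striated muscle genes, and of 4 muscle markers measured 1 fell. There were 13 alternatives: leaving out each array, the replicate number as a block, quantile normalization, a shift to equal array medians, dropping genes under the median level, averaging probe sets per gene, fitting every single-symbol probe set, and eBayes with its trend and robust options. R 4.3.3, limma 3.58.1, Python 3.11.15, scipy 1.17.1, pandas 2.3.3 and matplotlib 3.10.9 were used.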

Additional observations from a re-analysis of the deposited data

How the results depend on the processing

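The count of members that fell was 5 and of those that rose 0 under all 13 alternatives. GMPR's difference ran from -4.64 to -4.46 where it was fitted. None of 37 further genes named as members, transcription factors, next genes of GMPR or genes of the wider lists changed its call where it was tested; dim ones such as GDA drop out when only genes above the median level are kept. Over all genes the count of lower calls ran from 3642 to 4494 and of higher calls from 3093 to 4037. For the wider lists they ran from 17 to 23 and from 14 to 17. Leaving out each array gave 3733 to 4494 lower and 3384 to 3860 higher calls, and an IMPDH2 to IMPDH1 shift of 0.47 to 0.52 (exact permutation p = 0.2, the smallest possible there). With only genes above the median level, the median difference of neighbours was -0.35 for IMPDH1, -0.26 for GMPS and -0.16 for APRT, from fewer genes. Guanylate cyclases had 2 lower calls after quantile normalization and without parent replicate 1. In the latter setting 2 deoxynucleotide genes were higher. With only genes above the median level, which tests fewer genes, higher calls went from 5 to 3 in the adenine branch and from 2 to 1 among nucleoside transporters, and lower calls from 1 to 0 among nucleoside diphosphate kinases and guanylate cyclases.

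Parent and colony samples share only a replicate number. The correlation of the deviations of same-numbered samples from their group means was -0.144, -0.048 and -0.011, and the labels' descriptions number the colonies otherwise. With the replicate block, 3931 genes were lower and 3633 higher, 5 members fell, and the IMPDH2 to IMPDH1 shift was 0.49 (exact permutation p = 0.25, the smallest possible). The planned ratio of GMPR2 to GMPR was not run, since GMPR2 was not analysed here. Signal over background was not given, which limits GMPR in colonies and GDA.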

Other observations

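Calls among the 20 measured neighbours of some other members are given here beside the shares over all genes, 20.9% higher and 22.9% lower, and differences between neighbourhoods were not tested. Around GDA on chromosome 9, 11 of 20 measured neighbours rose and 3 fell, with a median of 0.20, while GDA itself did not pass the test. The largest rise among them was that of ALDH1A1, a retinaldehyde-oxidising enzyme gene, at 1.53 ± 0.08, and the lowest value that of CEMIP2 at -1.03 ± 0.05. Around IMPDH2 the median was 0.02, with 4 higher and 3 lower, and LAMB2, a laminin chain gene, at 1.32. Around GUK1 it was 0.02, with 5 higher and 3 lower, and around APRT it was -0.03, with 2 higher and 6 lower. These extremes were chosen after their values were seen.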
